A study of Homo sapiens with 12 samples.

Results

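The transcripts of 10 genes that p53 is known to activate and that act in DNA repair, nucleotide supply, metabolism or the response of damaged cells were followed in human cancer cells that carried Cas9 and a guide against WRN or a control guide. The genes were chosen by name, but with earlier results of these data known, so their direction is no independent support. The 10 are DDB2, XPC, POLH, RRM2B, FDXR, TP53I3, C12orf5 (now called TIGAR), AEN, PHLDA3 and RPS27L. They are 10 of the 25343 genes in the deposited table, and 10 of 10 were expressed above the filter on low counts, beside 14199 genes tested in all. Cells carried sgWRN2 or sgWRN3, guides against WRN, which encodes a RecQ DNA helicase, or sgCh2-2, the control guide, aimed at an intergenic site. Each guide was put into SW48 cells, a colorectal cancer line, and into OVK18 cells, an ovarian cancer line, both of which expressed Cas9, and RNA was taken 72 h after transduction. There are 6 groups with 2 libraries each, called A and B, and all cells of all groups carried Cas9 and a guide, with no untransduced group among them. The labels do not say that A and B came from separate cultures, so p-values measure the spread between these libraries, which may be technical.

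The transcription factor p53 is stabilised when DNA is damaged, binds response elements near its target genes and raises their transcription. Best known among its targets are CDKN1A, which stops the cell cycle, and MDM2, which returns p53 to a low level, but many targets repair lesions, supply nucleotides or adjust metabolism while the cycle is halted. A p53 response element is made of a pair of half-sites, each with a conserved C and G at its core, set next to each other or apart by a short spacer.

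The promoters of the genes were read for such elements, since all 10 genes are known p53 targets. RefSeq promoter windows of build GRCh38.p14, running from 250 bases before to 50 bases after a gene's start, were found for 8 of the 10 genes; none is printed for RRM2B and PHLDA3. Both strands were searched for the p53 half-site of 10 bases, with a spacer of at most 13 bases between half-sites. The best pair in the window is given here for DDB2, XPC, POLH, FDXR and AEN, on the strand of the gene, with the 2 half-sites in capitals and 4 flanking bases in lower case.
DDB2: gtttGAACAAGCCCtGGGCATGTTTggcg
XPC: agtgGAATTTGCCCAGACAAGCAAcatg
POLH: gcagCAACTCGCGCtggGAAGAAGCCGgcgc
FDXR: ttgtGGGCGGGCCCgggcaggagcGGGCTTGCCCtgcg
AEN: agccGGGCTTGCCCGGGCATGTGGgagc
DDB2 held a full element with 0 mismatches to the pair of half-sites, at chr11:47214979-47214999 on the plus strand, 6 to 26 bases after the start of the second of its 2 windows; a full element was found in 0.03% of 35116 promoter windows. The pairs of AEN (chr15:88621306-88621325, plus strand) and FDXR (chr17:74872996-74873025, minus strand) had 2 mismatches each, and 7.82% of windows held a pair at least as good. The best pair of XPC (chr3:14178570-14178589, minus strand) had 3 mismatches, and 39.06% of all windows held a pair at least as good. POLH had 5 mismatches at its best (chr6:43576005-43576027, plus strand), and 98.94% of windows did at least as well. The windows of RPS27L and TP53I3 had 3 mismatches at best and that of C12orf5 4. At least 1 half-site was found in 6.6% of all windows and in windows of DDB2, FDXR, AEN and RPS27L. A match is a run of letters and not a shown binding site, and an element outside these windows would not be seen.

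WRN itself was measured first, to check the labels. Its transcript stood at 37.2 and 34.1 CPM in the sgWRN2 libraries, 42.3 and 56.9 CPM in the sgWRN3 libraries and 91.2 and 112 CPM in the sgCh2-2 libraries in SW48, and in OVK18 at 22.0 and 21.0 CPM with sgWRN2, 22.2 and 23.0 CPM with sgWRN3 and 32.0 and 39.8 CPM with sgCh2-2. In both lines the 4 libraries with a WRN guide were lower than the 2 controls; the log2 difference over both guides was -1.27 (SE 0.13, adjusted p = 0.00409) in SW48 and -0.71 (SE 0.14, adjusted p = 0.206) in OVK18, in edgeR's quasi-likelihood test. The SW48 call was lost without SW48 sgCh2-2 B (adjusted p = 0.0667). Total counts ran from 15423162 to 30752291 in SW48 and from 17600573 to 32581625 in OVK18. In these libraries A and B of a group differed by transcript GC content (the share of G and C bases): genes rich in GC were lower in A with sgWRN2 and higher in A with sgWRN3 and sgCh2-2, in both lines. Most markers of a colorectal line were present in SW48. There 6 intestinal genes summed to 200.3 to 241 CPM (counts scaled to library size with TMM), against 0.0436 to 0.233 CPM in OVK18. Of these 6, LGALS4 was near 0 with sgCh2-2, at a mean of 0.016 CPM in SW48 and 0.054 CPM in OVK18. VIL1 was low in SW48, at 1.8 CPM with sgCh2-2. Of 6 Mullerian and ovarian markers the sum was 102.6 to 118.9 CPM in SW48 and 74.3 to 81.6 CPM in OVK18, where PAX8 and WFDC2 were at 0 with sgCh2-2 and 2 of 6 were at 0 in each group. The 6 fibroblast genes summed to 0.239 to 0.545 CPM in SW48 and 407 to 479 CPM in OVK18, most of it COL3A1, with THY1 at 0. Between guides, sums of sgWRN2 and sgCh2-2 libraries did not overlap in 5 cases, among the sums of every marker list in both lines. Such gaps were common in single genes. With sgWRN2 in SW48 21.6% of all genes lay above both controls in both libraries and 17.2% below, and in OVK18 19.2% and 21.4%. The Mullerian and ovarian sum was 106.8 to 108.3 CPM with sgWRN2 against 115.1 to 118.7 CPM with sgCh2-2 in SW48, and 76.2 to 81.6 CPM against 74.3 to 75.8 CPM in OVK18. The leukocyte and endothelial sum in SW48, made of 3 genes above 0, was 12.8 to 14.03 CPM with sgWRN2 against 10.5 to 11.1 CPM with sgCh2-2. In OVK18 the fibroblast sum was 407 to 415 CPM with sgWRN2 against 444 to 479 CPM with sgCh2-2. The intestinal sum there was 0.105 to 0.11 CPM against 0.217 to 0.233 CPM, all near 0. With sgWRN3 in OVK18 the Mullerian and ovarian sum (77.3 to 78.4 CPM) and the intestinal sum (0.0436 to 0.0776 CPM) did not overlap sgCh2-2 either. The part of all these sums in the results below was not tested.

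In SW48 all 10 genes had higher mean levels with the WRN guides than with sgCh2-2, and 2 of them, the repair genes XPC and POLH, rose past the threshold (Benjamini-Hochberg adjusted p under 0.05 over all genes tested). Of all genes, 50.8% had a positive log2 fold change over both guides. With both guides in 1 contrast the 10 log2 fold changes ran from 0.22 for C12orf5 to 0.49 for PHLDA3, with a median of 0.325 against 0.00379 for all genes tested, and 7 of the 10 had an unadjusted p under 0.05, as did 7.84% of all genes. The 2 calls stand against 0.866% of all genes called in this contrast, 36 higher and 87 lower. With sgWRN2 alone the same 2 genes were called, against 3.08% of all genes, and the median of the 10 was 0.458. With sgWRN3 alone 0 of 10 genes passed edgeR's test, as did 0% of all genes, and the median was 0.229; 3 of the 10 and 262 of all genes had an unadjusted p under 0.05. All 4 WRN-guide libraries lay above both control libraries for 4 of the 10 genes, DDB2, XPC, POLH and C12orf5, against 6.01% of all genes. Both sgWRN2 libraries lay above both controls for 10 of 10 genes (21.6% of all genes), and both sgWRN3 libraries for 4 (9.89%). None of the 10 lay below both controls in all libraries over both guides, with sgWRN2 or with sgWRN3, against 5.33%, 17.2% and 10.6% of all genes. The 2 guides share their 2 control libraries, so their values are not independent of each other. RNA was taken from bulk cells, in which a change in the share of cells that express a gene and a change in RNA per cell cannot be told apart.

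**Figure D1:**
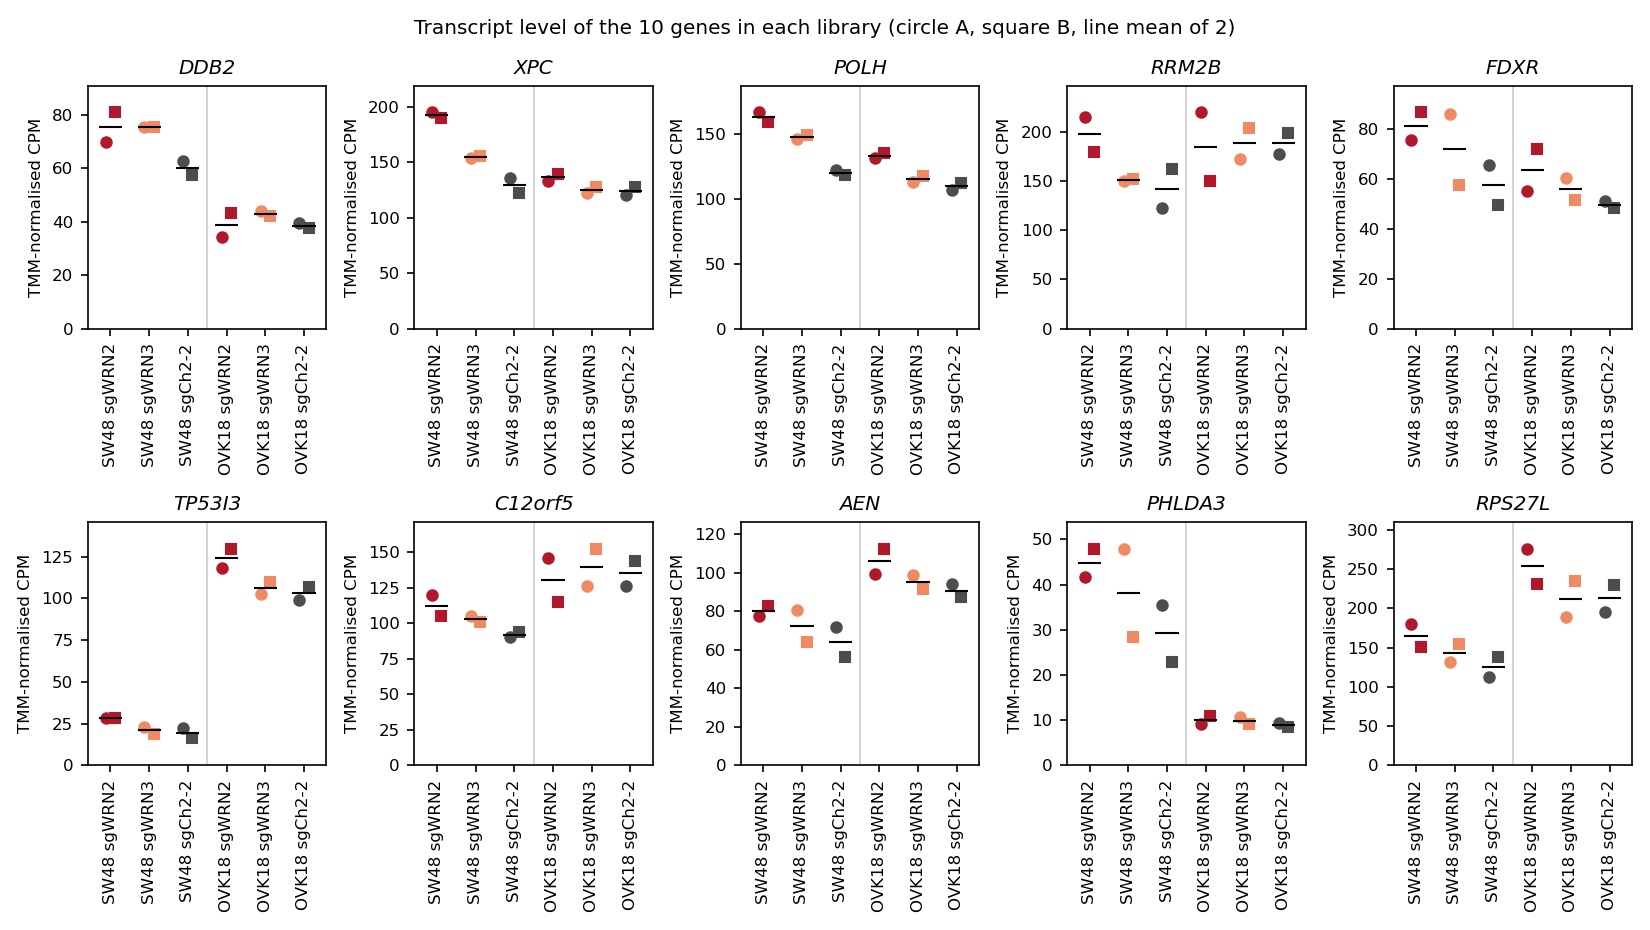
TMM-normalised CPM of the 10 genes (vertical axes, linear, from 0) in each library of the 6 groups (horizontal axes); circles are library A, squares library B and lines the mean of 2. Both sgWRN2 libraries lie above both sgCh2-2 libraries for 10 genes in SW48 (21.6% of all genes) and for 6 in OVK18 (19.2%), and all 4 WRN-guide libraries do so for 4 genes in SW48 (6.01%) and 2 in OVK18 (2.9%).

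DDB2 and XPC are sensors of global genome nucleotide excision repair: DDB2 finds ultraviolet photoproducts in chromatin and hands them to XPC, which opens the helix beside the lesion. XPC stood at 196 and 190.5 CPM in the sgWRN2 libraries, 154 and 156 CPM in the sgWRN3 libraries and 136 and 122 CPM in the sgCh2-2 libraries of SW48. The 3 groups did not overlap, with sgWRN2 highest and sgCh2-2 lowest. How many of all genes had this order was not counted. Both sgWRN2 libraries lay above both controls for 21.6% of all genes. XPC rose 1.34-fold over both guides, a log2 fold change of 0.42 (SE 0.079, adjusted p = 0.033); it rose by 0.58 (SE 0.09, adjusted p = 0.00402) with sgWRN2 and stood at 0.26 (SE 0.09, adjusted p = 1) with sgWRN3. DDB2, whose promoter element is printed above, stood at 69.7 and 81.0 CPM in the sgWRN2 libraries, 75.4 and 75.4 CPM in the sgWRN3 libraries and 62.6 and 57.3 CPM in the sgCh2-2 libraries of SW48. All 4 libraries with a WRN guide were above both controls, and the 2 guides gave the same mean to 3 digits, 75.4 CPM. The log2 difference of DDB2 over both guides, 0.33 (SE 0.11, adjusted p = 0.334), did not pass. In OVK18 XPC had 134 and 139.7 CPM with sgWRN2, 123 and 128 CPM with sgWRN3 and 121 and 127 CPM with sgCh2-2, and DDB2 had 34.3 and 43.3 CPM with sgWRN2, 43.8 and 42.0 CPM with sgWRN3 and 39.4 and 37.5 CPM with sgCh2-2. The OVK18 groups of both genes were close together, and DDB2 with sgWRN2 had 1 library below and 1 above both controls. The log2 differences in OVK18 were 0.076 for XPC (95% interval -0.095 to 0.25) and 0.084 for DDB2 (-0.15 to 0.32), both at adjusted p = 1.

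Of 27 other genes of nucleotide excision repair, 27 were tested and 0 rose or fell in SW48, with a median log2 fold change of 0.0257; the same was true in OVK18 (median 0.0166) and with sgWRN2 alone in SW48 (0.0473). The smallest p-values in SW48 belonged to the single-strand binding subunits RPA3 (-0.41, adjusted p = 0.536) and RPA1 (-0.20, adjusted p = 0.537), to RBX1 (-0.24), part of the ubiquitin ligase that DDB2 joins, and to UVSSA (0.23), which acts in transcription-coupled repair. DDB1, the partner of DDB2, stood at 0.12 (SE 0.10, adjusted p = 0.933), and RAD23B, the partner of XPC, at -0.099 (SE 0.13, adjusted p = 1).

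POLH encodes DNA polymerase eta, which copies past ultraviolet lesions in translesion synthesis. In SW48 it stood at 167 and 159.5 CPM in the sgWRN2 libraries, 146 and 149.5 CPM in the sgWRN3 libraries and 123 and 118 CPM in the sgCh2-2 libraries. As for XPC, the 3 groups were apart from each other, in the order sgWRN2, sgWRN3, sgCh2-2, whose share of all genes was not counted. The log2 fold change of POLH was 0.37 (SE 0.075, adjusted p = 0.0467) over both guides and 0.44 (SE 0.086, adjusted p = 0.015) with sgWRN2, both past the threshold, and 0.30 (SE 0.086, adjusted p = 1) with sgWRN3. In OVK18 it had 132 and 136 CPM with sgWRN2, 113.0 and 118 CPM with sgWRN3 and 107 and 112.8 CPM with sgCh2-2. All 4 WRN-guide libraries of OVK18 were above both controls, with sgWRN3 A only just above. The log2 difference of POLH in OVK18 was 0.18 over both guides (adjusted p = 1, unadjusted p = 0.0353) and 0.28 with sgWRN2 (SE 0.086, adjusted p = 0.17; adjusted p = 0.0125 with DESeq2). Of 11 other translesion synthesis genes, 11 were tested and 0 passed in SW48 over both guides, with a median of -0.111. Their smallest p-values belonged to RAD18 (-0.39, adjusted p = 0.177), the ubiquitin ligase that recruits polymerase eta to PCNA, and REV3L (0.32, adjusted p = 0.334), the catalytic subunit of polymerase zeta. With sgWRN2 alone RAD18 fell by 0.57 on the log2 scale (adjusted p = 0.0293), the 1 call of the list, so that POLH and RAD18 changed in opposite directions in those libraries. RAD18 lost its call without SW48 sgCh2-2 B or either SW48 sgWRN2 library (adjusted p up to 0.24).

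The 2 calls over both guides in SW48 were close to the threshold. Leaving out any 1 of the 6 SW48 libraries, of the 2 OVK18 sgCh2-2 libraries or of the 2 OVK18 sgWRN3 libraries ended both: the adjusted p of XPC was then 0.0662 (without OVK18 sgWRN3 A) to 0.516 (without SW48 sgCh2-2 B), and that of POLH 0.0853 to 0.516 (the same libraries left out), at log2 fold changes of 0.33 to 0.48 and 0.33 to 0.38. Without OVK18 sgWRN2 A or B both calls were made. For sgWRN2 alone, XPC lost its call without SW48 sgCh2-2 B (0.47, adjusted p = 0.0736), and POLH lost it without SW48 sgCh2-2 A (adjusted p = 0.081) or B (0.172) and without SW48 sgWRN2 A (0.141) or B (0.0847). Both calls over both guides also ended in the fit of the 6 SW48 libraries alone (adjusted p = 0.101 for XPC and 0.151 for POLH), with a replicate block (0.102 and 0.135) and on FPKM (0.0823 to 0.0922 and 0.137 to 0.16), and POLH lost its call with no filter on low counts (0.0876). For sgWRN2 alone these fits called XPC, whereas POLH was not called with the 6 SW48 libraries alone (0.06) or on FPKM (0.0727 to 0.0818). Without the sgWRN2 libraries XPC stood at 0.26 and POLH at 0.30, both at adjusted p = 1.

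RRM2B encodes p53R2, the small subunit of ribonucleotide reductase that supplies deoxynucleotides outside S phase, in place of RRM2, the small subunit of dividing cells. RRM2B stood at 215 and 179.6 CPM in the sgWRN2 libraries, 150.1 and 152 CPM in the sgWRN3 libraries and 122 and 162 CPM in the sgCh2-2 libraries of SW48. Both sgWRN2 libraries were above both controls, whereas both sgWRN3 libraries lay between the 2 controls, which were far apart. The log2 difference of RRM2B was 0.28 (SE 0.16, adjusted p = 0.765) over both guides, 0.48 (SE 0.18, adjusted p = 0.255) with sgWRN2 and 0.09 (SE 0.18, adjusted p = 1) with sgWRN3. In OVK18 RRM2B had 219.9 and 149.5 CPM with sgWRN2, 173 and 204 CPM with sgWRN3 and 177 and 199 CPM with sgCh2-2, with the 2 sgWRN2 libraries on either side of all others, and a log2 difference over both guides of -0.013 (95% interval -0.35 to 0.33, adjusted p = 1). RRM2 stood at 126 and 119 CPM in the sgWRN2 libraries, 206 and 220.0 CPM in the sgWRN3 libraries and 242 and 261 CPM in the sgCh2-2 libraries of SW48, and fell by 0.64 over both guides (log2, SE 0.092, adjusted p = 0.00938), a call lost without SW48 sgCh2-2 A or B (adjusted p up to 0.12). RRM2 was called with sgWRN2 alone whichever library was left out. RRM1, the large subunit that both share, stood at -0.33 (SE 0.083, adjusted p = 0.115).

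Set against each other per transcript length, as the ratio of RRM2B FPKM to RRM2 FPKM (FPKM is a level per transcript length and library depth), the small subunits came to about equal levels with sgWRN2. The ratio in SW48 was 1.09 and 0.959 with sgWRN2, 0.464 and 0.446 with sgWRN3 and 0.323 and 0.4 with sgCh2-2, which gives means of 1.02 ± 0.0926, 0.455 ± 0.0127 and 0.362 ± 0.0544 (SD, n = 2 each). In OVK18 it was 1.14 and 0.919 with sgWRN2, 0.678 and 0.878 with sgWRN3 and 0.688 and 0.855 with sgCh2-2. The sgWRN2 libraries were thus above the controls in both lines, in OVK18 by less than the gap between A and B of a group. The sgWRN3 libraries were above the controls in SW48 and on both sides of them in OVK18. In OVK18 the log2 difference of A minus B for RRM2B was 0.557 with sgWRN2 and -0.166 with sgCh2-2. The part of such differences between libraries in the ratio was not tested. With 2 libraries a group the ratio was not tested, and in SW48 RRM2 differed more than RRM2B did: RRM2 averaged 29.5 FPKM with sgWRN2 against 63.7 FPKM with sgCh2-2, and RRM2B 30.3 FPKM against 23.1 FPKM. In OVK18 RRM2 averaged 28.5 ± 2.15 FPKM with sgWRN2 against 39.4 ± 3.87 FPKM with sgCh2-2 (SD, n = 2 each). RRM2B averaged 29.6 ± 6.76 FPKM against 30.2 ± 1.67 FPKM. The higher mean ratio there came with a lower mean of RRM2 and no higher mean of RRM2B. The log2 difference of RRM2 with sgWRN2 in OVK18, -0.48 (SE 0.11, adjusted p = 0.0796 in edgeR), did not pass. Of 15 other genes of deoxynucleotide supply, 15 were tested, 0 rose and 2 fell in SW48 (median -0.298), RRM2 among them. With sgWRN2 alone 6 fell, among them TYMS, thymidylate synthase, by 0.57 on the log2 scale (adjusted p = 0.00457) and RRM1 by 0.54 (adjusted p = 0.00881), both lost without SW48 sgWRN2 B (adjusted p = 0.067 and 0.108). RRM2B thus had a positive log2 difference on a side of metabolism where all called genes were lower, without passing the test itself. Of 12 markers of proliferation, 2 fell in SW48 over both guides, CCNB1 by 0.73 and MKI67 by 0.67 on the log2 scale (adjusted p = 0.00507 each), with a median of -0.487, and 7 fell with sgWRN2 (median -0.739); their part in the ratio was not tested. CCNB1 lost its call over both guides without SW48 sgCh2-2 B and MKI67 without SW48 sgCh2-2 A or B (adjusted p up to 0.0667). Both were called with sgWRN2 alone whichever library was left out.

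**Figure D2:**
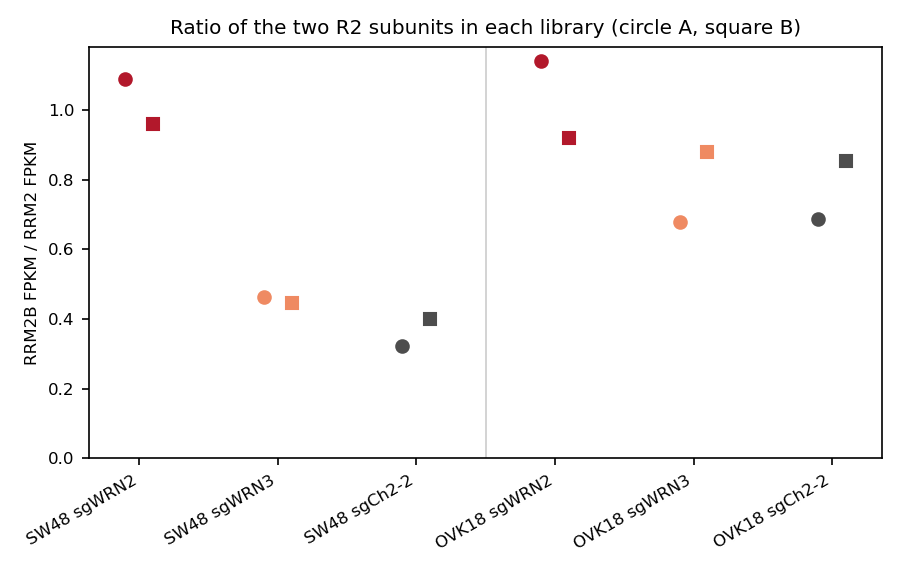
Ratio of RRM2B to RRM2 in FPKM (vertical axis, linear, from 0) in each library of the 6 groups (horizontal axis), circles for library A and squares for library B. The sgWRN2 libraries lie at 0.919 to 1.14 in both lines, above the sgCh2-2 libraries at 0.323 and 0.4 in SW48 and 0.688 and 0.855 in OVK18.

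FDXR, TP53I3 and C12orf5 act in redox and sugar metabolism. FDXR is ferredoxin reductase, which passes electrons from NADPH to mitochondrial ferredoxin for steroid and iron-sulphur cluster synthesis. It stood at 75.6 and 86.6 CPM in the sgWRN2 libraries, 85.9 and 57.4 CPM in the sgWRN3 libraries and 65.4 and 49.3 CPM in the sgCh2-2 libraries of SW48, where 3 of 4 WRN-guide libraries were above both controls and sgWRN3 B lay between them. Its log2 difference was 0.41 (SE 0.17, adjusted p = 0.571) over both guides in SW48. In OVK18 FDXR had 54.9 and 71.7 CPM with sgWRN2, 60.1 and 51.4 CPM with sgWRN3 and 51.0 and 48.3 CPM with sgCh2-2; all 4 WRN-guide libraries were above both controls, by little in sgWRN3 B, and the difference was 0.26 (SE 0.17, adjusted p = 1). FDXR and POLH were the 2 of the 10 genes whose WRN-guide libraries lay above both controls throughout in OVK18, against 2.9% of all genes.

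TP53I3 (PIG3) is a quinone oxidoreductase linked to reactive oxygen. It stood at 28.6 and 28.2 CPM in the sgWRN2 libraries, 23.2 and 19.0 CPM in the sgWRN3 libraries and 22.4 and 16.6 CPM in the sgCh2-2 libraries of SW48, and the sgWRN3 libraries overlapped the controls while the sgWRN2 libraries did not. TP53I3 had a log2 difference of 0.53 (SE 0.15, adjusted p = 0.0828) with sgWRN2, the nearest to the threshold after the 2 calls, and of 0.11 (SE 0.15, adjusted p = 1) with sgWRN3. In OVK18 it had 118 and 129.9 CPM with sgWRN2, 103 and 109.9 CPM with sgWRN3 and 99.1 and 107 CPM with sgCh2-2, with a difference of 0.27 with sgWRN2 (adjusted p = 0.421). C12orf5 encodes TIGAR, a phosphatase that slows glycolysis and favours the pentose phosphate pathway. It stood at 119.6 and 105 CPM in the sgWRN2 libraries, 105 and 101 CPM in the sgWRN3 libraries and 90.6 and 93.6 CPM in the sgCh2-2 libraries of SW48; all 4 WRN-guide libraries were above both controls, and the log2 difference, 0.22 (SE 0.12, adjusted p = 0.728), was the smallest of the 10. In OVK18 it had 146 and 115 CPM with sgWRN2, 126 and 153 CPM with sgWRN3 and 126 and 144 CPM with sgCh2-2, groups that overlap, with a difference of -0.0013 (95% interval -0.25 to 0.25, adjusted p = 1).

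The pathways around these 3 enzymes held no call over both guides in SW48. Of 17 other redox and ferredoxin genes, 17 were tested and 0 passed (median -0.0656); NQO1, another quinone reductase, stood at -0.29 (adjusted p = 0.298) and FDX1, the ferredoxin that FDXR reduces, at -0.21. Of 17 genes of glycolytic control and the pentose phosphate pathway, 17 were tested and 0 passed (median -0.0118), with the smallest p-values at RPE (-0.32, adjusted p = 0.564) and RPIA (-0.15), enzymes of the pentose phosphate pathway. CRYZ, a quinone oxidoreductase related to TP53I3, stood at -0.18 (adjusted p = 0.953). In OVK18 over both guides these lists held 0 calls as well, with medians of -0.0263 and 0.0304.

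AEN, PHLDA3 and RPS27L take part in the fate of damaged cells. AEN is a nuclease related to ISG20 that p53 induces in apoptosis. It stood at 77.4 and 82.5 CPM in the sgWRN2 libraries, 80.9 and 64.1 CPM in the sgWRN3 libraries and 71.7 and 56.4 CPM in the sgCh2-2 libraries of SW48, where sgWRN3 B lay between the controls and the other WRN-guide libraries lay above them; its log2 difference was 0.25 (SE 0.12, adjusted p = 0.689). In OVK18 AEN had 99.6 and 113 CPM with sgWRN2, 99.0 and 91.6 CPM with sgWRN3 and 94.1 and 87.3 CPM with sgCh2-2, a difference of 0.15 (SE 0.12, adjusted p = 1). ISG20 and ISG20L2 stood at 0.57 (adjusted p = 0.842) and 0.057 in SW48, where ISG20 had a count of only 7 to 15 in a library.

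PHLDA3 binds the same membrane lipids as AKT through a pleckstrin homology domain and so represses it. It stood at 41.6 and 48.0 CPM in the sgWRN2 libraries, 48.0 and 28.4 CPM in the sgWRN3 libraries and 35.6 and 22.9 CPM in the sgCh2-2 libraries of SW48. Its log2 difference, 0.49 (SE 0.21, adjusted p = 0.574), was the largest of the 10 and also the least precise, since A and B were far apart both with sgWRN3 and with sgCh2-2. PHLDA3 in OVK18 had 9.18 and 10.8 CPM with sgWRN2, 10.7 and 9.12 CPM with sgWRN3 and 9.28 and 8.54 CPM with sgCh2-2, a difference of 0.16 (95% interval -0.34 to 0.65). PHLDA1 and PHLDA2, of the same family, stood at 0.039 and 0.11 in SW48. RPS27L is a ribosomal protein like RPS27 that is bound by MDM2. It stood at 179.7 and 151 CPM in the sgWRN2 libraries, 131 and 155 CPM in the sgWRN3 libraries and 112 and 138 CPM in the sgCh2-2 libraries of SW48, where both sgWRN2 libraries and 1 sgWRN3 library lay above both controls, and in OVK18 at 276 and 231 CPM with sgWRN2, 189 and 235 CPM with sgWRN3 and 196 and 230.4 CPM with sgCh2-2. Its log2 differences were 0.30 (SE 0.14, adjusted p = 0.628) in SW48 and 0.12 (SE 0.14, adjusted p = 1) in OVK18. RPS27, whose sequence is close enough that reads may have been divided between the 2 genes, stood at 0.24 (SE 0.11, adjusted p = 0.623) in SW48, so the value of RPS27L is uncertain.

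**Figure D3:**
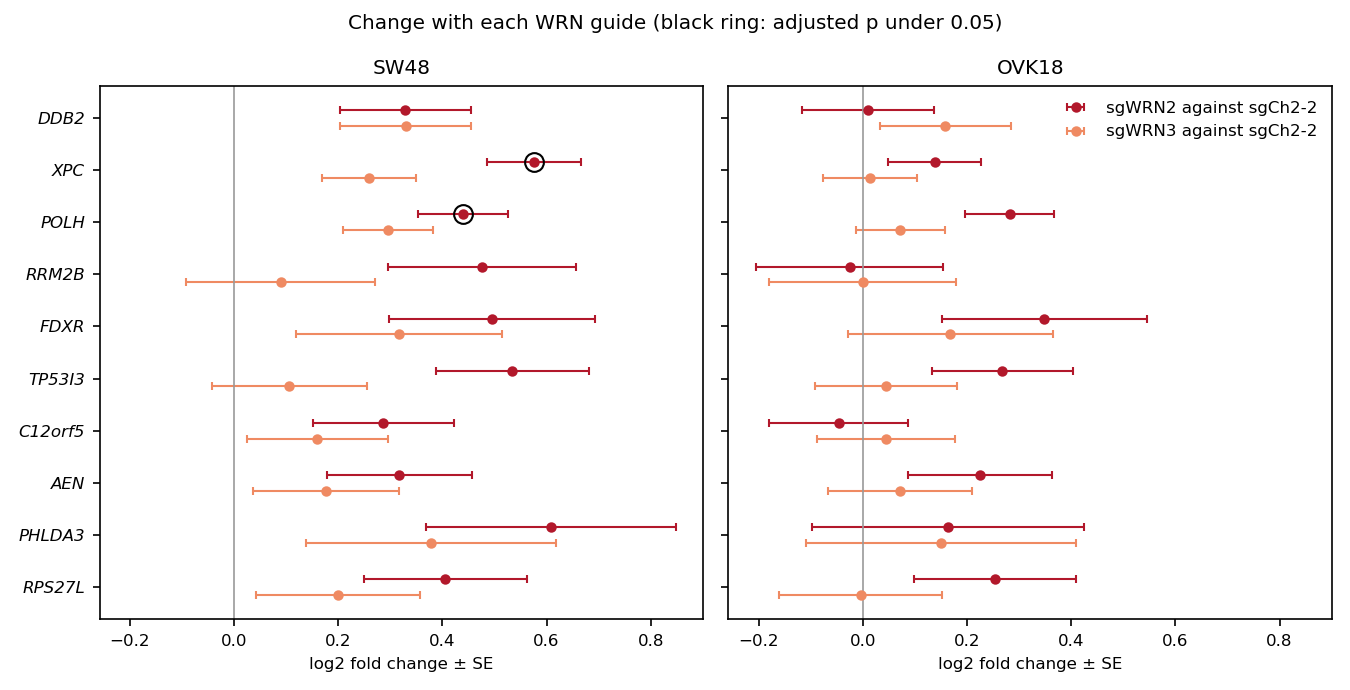
Log2 fold change with its standard error (horizontal axis) of each gene (vertical axis) for sgWRN2 and sgWRN3, each against sgCh2-2, in SW48 (left) and OVK18 (right); a black ring marks an adjusted p under 0.05. In SW48 all values are above 0 (53.3% of all genes with sgWRN2 and 46.6% with sgWRN3), and XPC and POLH with sgWRN2 are ringed. In OVK18 the values lie nearer to 0 and none is ringed.

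In OVK18 none of the 10 genes passed over both guides in edgeR, beside 0.0282% of all genes, and 1 of the 10, POLH, had an unadjusted p under 0.05, as did 4.04% of all genes; DESeq2 and limma-voom also called 0. The median log2 difference was 0.136 against 0 for all genes, and 8 of 10 values were positive, as were 48.9% of all genes. With sgWRN2 alone 0 of 10 passed (0.796% of all genes), with a median of 0.194, and both libraries lay above both controls for 6 genes (19.2% of all genes): XPC, POLH, FDXR, TP53I3, AEN and RPS27L. With sgWRN3 alone 0 of 10 passed (0% of all genes; 0 of the 10 and 116 of all genes at an unadjusted p under 0.05), with a median of 0.0576, and 3 lay above both controls (9.53%): DDB2, POLH and FDXR. The difference between the lines, SW48 minus OVK18, was positive for 10 of 10 genes (50.8% of all genes) with a median of 0.208, but 0 passed (0.0282% of all genes). The smallest p of these belonged to XPC, with a difference of 0.34 (SE 0.11, unadjusted p = 0.00932, adjusted p = 1), and the smallest difference, 0.099, to AEN. These data therefore do not show that the 10 genes respond differently in the 2 lines.

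The 2 WRN guides were also set against each other, which needs no control library. In SW48 9 of 10 genes were higher with sgWRN2 than with sgWRN3 (54.5% of all genes), and DDB2 stood at the same level (log2 difference -0.00058, SE 0.13). Of the 10, 0 passed, against 0.944% of all genes. TP53I3 differed by 0.43 (SE 0.15, adjusted p = 0.337), RRM2B by 0.39 (SE 0.18, adjusted p = 0.599) and XPC by 0.32 (SE 0.09, adjusted p = 0.185). In OVK18 7 of 10 were higher with sgWRN2 (47.2% of all genes), 0 passed (0.747% of all genes), and POLH had the smallest p (0.21, SE 0.086, adjusted p = 0.29). CDKN1A, a p53 target outside the 10, stood at 945 and 1008 CPM in the sgWRN2 libraries of SW48. In that line it had 655 and 519 CPM with sgWRN3 and 412 and 326 CPM with sgCh2-2. This was the same order of guides as for XPC and POLH, and its share of all genes was not counted.

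The 2 lines also differed in the libraries with the control guide. With sgCh2-2, 6 of the 10 genes differed between SW48 and OVK18, no larger a share than the 68.6% of all genes. The count is therefore nothing particular to the 10 genes. PHLDA3 was higher in SW48, by 1.72 (SE 0.25, adjusted p = 6.06e-05) on the log2 scale or 3.3-fold, and so was DDB2, by 0.64 (SE 0.13, adjusted p = 0.00063). TP53I3 was lower in SW48 by a log2 difference of -2.39 (SE 0.15, adjusted p = 1.65e-08), and it averaged 19.5 ± 4.08 CPM there against 103 ± 5.58 CPM in OVK18 (SD, n = 2 each). RPS27L (-0.77, SE 0.16, adjusted p = 0.000826), C12orf5 (-0.55, SE 0.13, adjusted p = 0.00275) and AEN (-0.50, SE 0.14, adjusted p = 0.00671) were also lower in SW48; AEN was at adjusted p = 0.0711 without SW48 sgCh2-2 B. RRM2B (-0.41, SE 0.18, adjusted p = 0.0619) was not called, but was so without SW48 sgCh2-2 B (-0.63, adjusted p = 0.0181) or either OVK18 sgWRN2 library (adjusted p = 0.0235 without A and 0.0194 without B). XPC (95% interval -0.14 to 0.26), POLH (-0.054 to 0.32) and FDXR (-0.22 to 0.64) were not called.

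Per transcript length, RPS27L was the highest of the 10 in the control libraries of both lines, at 107 ± 12.3 FPKM in SW48 and 180 ± 16.4 FPKM in OVK18. Next in SW48 came XPC (28.1 FPKM), DDB2 (26.7), FDXR (25.5) and RRM2B (23.1), each of which overlapped its neighbour in the order. AEN (16.9), PHLDA3 (16.6), TP53I3 (11.5) and POLH (11.1) again overlapped from neighbour to neighbour, and C12orf5 was lowest at 8.67 FPKM. In OVK18 TP53I3 came second at 63.4 FPKM, then RRM2B (30.2 FPKM), XPC (26.4), AEN (23.5), FDXR (21.5), DDB2 (16.4), C12orf5 (12.4) and POLH (9.83), and PHLDA3 was lowest at 4.94; in this order AEN and FDXR overlapped, and the other neighbours did not. TP53I3 was thus among the lower levels in SW48 and next to the top in OVK18, and PHLDA3 stood above C12orf5 and POLH in SW48 and below both in OVK18.

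The difference between A and B of a group followed GC content in these genes too. Transcript GC ran from 36.4% for RRM2B, 43.3% for RPS27L and 44.2% for C12orf5 to 58.4% for TP53I3, 59.6% for PHLDA3 and 61.8% for FDXR, around a median of 48.3% over the 13184 of 14199 genes (92.9%) with a value. XPC (52.5%) and POLH (47.2%) lay near the middle. These values are for the longest annotated transcript of each gene, which may not be the one expressed in these cells. In SW48 the log2 difference of A minus B was -0.20 for PHLDA3 and 0.26 for RRM2B with sgWRN2, against 0.63 for PHLDA3 and -0.41 for RRM2B with sgCh2-2. It was within 0.16 of 0 for XPC and POLH in all 6 groups. Over the 10 genes A minus B correlated with GC at r = -0.832 with sgWRN2, 0.768 with sgWRN3 and 0.934 with sgCh2-2 in SW48, and at -0.892, 0.804 and 0.694 in OVK18 in the same order. Over all 13184 genes the values were -0.344, 0.414 and 0.495 in SW48, and -0.57, 0.443 and 0.33 in OVK18. These describe single pairs of libraries, in which genes share depth and preparation. The 2 genes that were called, XPC and POLH, are among those with small differences between A and B. The test weighs a fold change against the spread between A and B, so a small spread in itself favours a call. PHLDA3, with a larger fold change and a larger spread, was not called. The part of GC content in these calls was not tested by this comparison.

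**Figure D4:**
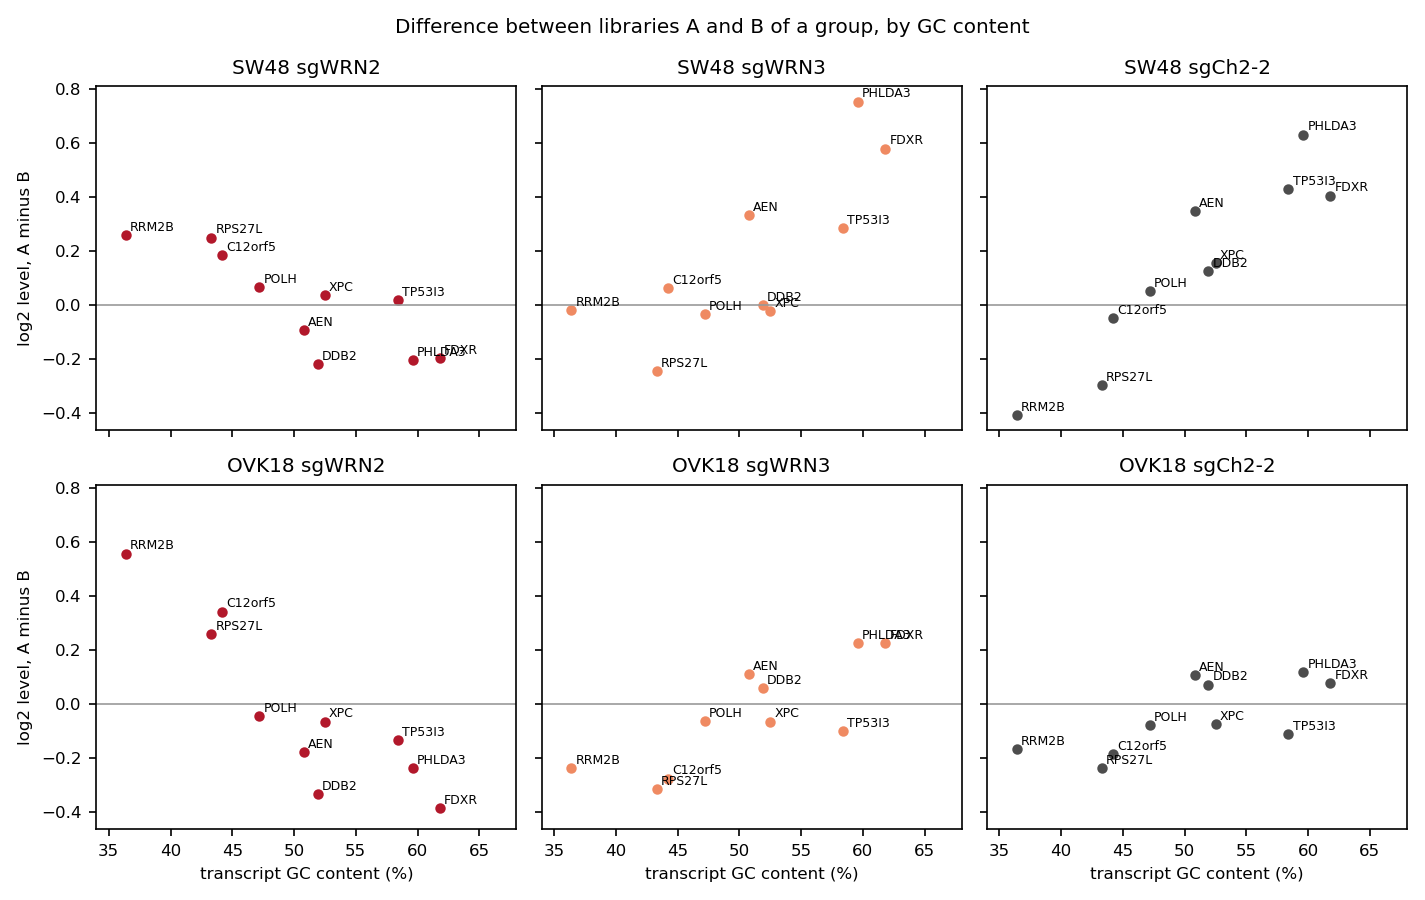
Log2 level of library A minus library B (vertical axes) against transcript GC content in percent (horizontal axes) for the 10 genes in each group. With sgWRN3 and sgCh2-2 the points climb to the right, and with sgWRN2 they fall, in both lines; XPC and POLH stay within 0.16 of 0 in each plot.

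When a GC score of each library was added as a covariate, a choice made after seeing the data, 8 of the 10 genes were called over both guides in SW48, against 7.33% of all genes, and the fold changes hardly moved. XPC stood at 0.41 (adjusted p = 7.47e-05), POLH at 0.37 (adjusted p = 0.00013), RPS27L at 0.33 (adjusted p = 0.000725), FDXR at 0.38 (adjusted p = 0.00127), DDB2 at 0.32 (adjusted p = 0.00358), PHLDA3 at 0.46 (adjusted p = 0.00688), RRM2B at 0.32 (adjusted p = 0.00835) and AEN at 0.23 (adjusted p = 0.0247). C12orf5, at 0.24 (adjusted p = 0.0506), and TP53I3, at 0.30 (adjusted p = 0.081), did not pass. In this fit 10 of 10 genes rose with sgWRN2 in SW48 (15.7% of all genes) and 0 with sgWRN3 (0.134%). In OVK18 0 of 10 passed over both guides (1.32%) and 0 with sgWRN3 (0.0141%), whereas POLH, FDXR and RPS27L passed with sgWRN2 (16.4%). The shares of all genes called were also higher, and the score was taken from the other genes of these same libraries. With the sgWRN2 libraries left out and the library letters as a block, DDB2, XPC, POLH, FDXR and PHLDA3 passed for sgWRN3 in SW48, against 1.06% of all genes, whereas 0 of the 10 and 0 of all genes passed in that fit without the block. The labels do not say that a letter marks a shared culture or day.

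Of 35 other p53-activated genes listed, 34 were tested; 6 rose and 0 fell in SW48 over both guides, with a median log2 fold change of 0.358, and CDKN1A (1.04), GDF15, a secreted stress cytokine (1.09, adjusted p = 0.0175), PLK2, a polo-like kinase (0.64, adjusted p = 0.00516), BTG2, an antiproliferative factor (0.63) and MDM2 (0.76, adjusted p = 0.0218) were among those that rose. Part of this list was known from these libraries, so its direction is no independent support. The median of the 10 genes, 0.325, was near that of the 34, but the largest of their changes, 0.49, was below those of CDKN1A, GDF15 and MDM2. With sgWRN2 alone 14 of 34 rose in SW48 (median 0.509) and 2 in OVK18 (median 0.218), where PLK2 rose by 1.02 on the log2 scale (adjusted p = 0.00174). Over both guides CDKN1A was not called without SW48 sgCh2-2 B (adjusted p = 0.0965), and PLK2 and BTG2 were not without SW48 sgCh2-2 A or B (up to 0.0965 and 0.114). GDF15 was not called without either of these libraries or SW48 sgWRN2 A or B (up to 0.311), and MDM2 was not without SW48 sgCh2-2 A or B, SW48 sgWRN2 A or SW48 sgWRN3 A or B (up to 0.243). With sgWRN2 alone each of these 5 was called whichever library was left out. Like those of the 10 genes, the list counts over both guides depended on single libraries: with 1 library left out at a time 0 to 9 p53-activated genes rose, 0 to 5 genes of deoxynucleotide supply fell and 0 to 7 proliferation genes fell, and without SW48 sgCh2-2 B 0 genes passed in all (4 without SW48 sgCh2-2 A). The highest of these counts came without OVK18 sgWRN2 A or B. With sgWRN2 alone in SW48 the ranges were 6 to 14, 2 to 6 and 2 to 8, lowest without SW48 sgWRN2 A, SW48 sgWRN2 B or SW48 sgCh2-2 B, and the 2 calls in OVK18 were 1 to 3. The genes whose levels followed the mean of the 10 most closely over the 12 libraries, relative to the controls of each line and among 10969 genes ranked, were BTG2 (Pearson r = 0.98), KIAA0247 (0.978), CDKN1A (0.967), CES2 (0.956) and BEX2 (0.955). Of these, BTG2, KIAA0247, CDKN1A and CES2 are on the list of other p53-activated genes, and BEX2 is not. As part of that list was known from these libraries, this overlap is no independent support either. In edgeR's test over both guides in SW48, BTG2 and CDKN1A were called. KIAA0247 (adjusted p = 0.0722), CES2 (0.052) and BEX2 (0.0751) were not. The mean of the 10 stood at 0.461 and 0.45 (A and B) with sgWRN2, 0.318 and 0.147 with sgWRN3 and 0.0702 and -0.0702 with sgCh2-2 in SW48, on the log2 scale relative to the controls, and at 0.145 and 0.167 with sgWRN2, 0.0483 and 0.0914 with sgWRN3 and -0.0237 and 0.0237 with sgCh2-2 in OVK18.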

How the data were processed

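Messenger RNA was measured in 12 libraries (KAPA mRNA kits, per the labels' protocols). The authors deposited a table of raw counts per gene; STAR 2.5, bcl2fastq 2.18 and build hg19 are named in the submitters' processing notes, with no role given. The authors also deposited a second table without a stated unit, taken to be FPKM, since the ratio of count to value increases with the length of the transcript. The notes list Cufflinks 2.2.1 as well. Annotation and strand settings are not given in the sources used here. The 92 spike-in features, all at 0, were left out, and 28 symbols had been turned into dates.

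edgeR 4.0.16 (R 4.3.3) was run on the counts with TMM scaling, filterByExpr (minimum count 10), 1 coefficient per group and robust quasi-likelihood dispersion (6 residual degrees of freedom). P-values were adjusted by the Benjamini-Hochberg method over 14199 genes at a threshold of 0.05. For both guides, the average of the 2 WRN-guide groups was set against sgCh2-2 within a line; every other comparison was a contrast of that fit. A standard error is the log2 fold change divided by the root of F. A and B of a group differed beyond counting error (chi-square per gene 8.25 to 23.5). Transcript GC content was that of the longest GENCODE transcript of each gene. The GC score of a library is the slope of its log2 levels, relative to its line, on this content over the tested genes other than the 10. The steps were also run on simulated data, in which a gene had the same baseline level in both lines. For the GC score the simulated spread was smaller than the fitted one. These runs therefore do not show how well the steps perform on the present libraries.

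Named are the 10 genes, WRN, paralogues and partners, up to 4 genes of each list by smallest p in SW48 over both guides, and the 5 genes most alike in pattern; genes past the threshold with 1 guide were named after their values were seen. The members and lists were chosen with earlier results of these data known. Alternatives were RLE scaling, library size alone, no filter, a mean of at least 5 CPM, DESeq2 1.42.0, limma-voom (limma 3.58.1), the libraries of 1 line alone, a replicate block, leaving out the sgWRN2 libraries, limma on log2 FPKM with pseudocounts of 1 and 0.1, and leaving out each library. Some genes of the lists are counted but not reported by name here.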

Additional observations from a re-analysis of the deposited data

How the results depend on the processing

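Over both guides in SW48 the 10 genes had a positive log2 fold change under each of the 25 alternatives, and over sgWRN2 in SW48 under each of 23. The count of the 10 genes called over both guides in SW48, 2 in edgeR with TMM, was 2 with RLE scaling, library size alone, a mean of at least 5 CPM, DESeq2 and limma-voom. It was 1 with no filter, and 0 with only the 6 libraries of the line, with either FPKM pseudocount and without the sgWRN2 libraries. It was 8 with the GC score, and 0 to 2 over the fits that each left out 1 library. With sgWRN2 in SW48 it was 6 with no filter, 1 with only the 6 libraries of the line or with either FPKM pseudocount, 10 with the GC score and 0 to 2 with 1 library left out. With sgWRN2 in OVK18 it was 1 with DESeq2 (POLH) and 3 with the GC score. For sgWRN2 against sgWRN3 it was 1 with DESeq2 and 3 with the GC score in SW48, and 2 with the GC score in OVK18. The shares of all genes called in these fits of guide against guide, and with DESeq2 for sgWRN2 in OVK18, are not given here. In other comparisons the GC score raised the count of all genes called, so these counts cannot be read alone. Of all genes, 123 were called over both guides in SW48, against 298 with DESeq2, 292 with no filter, 197 with FPKM at pseudocount 1, 44 with only the line's libraries, 28 with a replicate block and 1041 with the GC score; with sgWRN2 in SW48 the 437 became 709 with DESeq2, 688 with no filter, 265 with the block and 2223 with the GC score. An FPKM fold change is on the log2(value + pseudocount) scale and understates changes of low genes.

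The labels give no shared origin for libraries of the same letter, and the letters did not meet the rule for pairing, a correlation over 0.1 in every pair, although same-lettered sgWRN3 and sgCh2-2 libraries moved together in both lines. Whether the letters of the sgWRN2 groups match those of the other groups cannot be told from the labels. The correlation of the deviations of same-lettered libraries over all genes was -0.089 between sgWRN2 and sgCh2-2, 0.00693 between the WRN guides and 0.413 between sgWRN3 and sgCh2-2 in SW48, and -0.105, -0.226 and 0.39 in OVK18. With a replicate block 0 of the 10 genes were called over both guides in SW48 and 2 with sgWRN2; C12orf5 in OVK18 stood at 0.00023 over both guides. With the replicate block and no sgWRN2 libraries, 5 genes were called in SW48, against 1.06% of all genes, where the contrast is then that of sgWRN3 alone; without the block 0 were.

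With all libraries kept or the sgWRN2 libraries left out, signs changed for these values, and the cause was not tested. Over both guides in OVK18 C12orf5 was 0.0061 with no filter, 0.0054 with only the line's libraries, 0.0085 with RLE, 0.0039 with library size alone, 0.0044 at 5 CPM, 0.0084 with DESeq2, 0.044 without the sgWRN2 libraries, 0.042 with the block as well and 0.028 with the GC score; RRM2B was 0.034 with the GC score, and RPS27L -0.0047 without the sgWRN2 libraries and -0.0075 with the block as well. With sgWRN2 in OVK18, DDB2 was -0.010 with limma-voom and -0.035 with the GC score, and RRM2B 0.030 with the GC score. With sgWRN3 in OVK18, XPC was -0.015 with FPKM at pseudocount 1 and -0.016 at 0.1, RRM2B 0.0025 with library size alone and 0.038 with the GC score, and RPS27L 0.029 with the GC score. For sgWRN2 against sgWRN3, DDB2 in SW48 was 0.014 with the GC score, and in OVK18 PHLDA3 was -0.020 with the GC score and RRM2B 4.1e-05 with no filter, 0.0062 with RLE and 0.0055 with DESeq2.

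With 1 library left out, values crossed 0 as follows. Over both guides in OVK18 DDB2 ran from -0.0021 to 0.17, RRM2B from -0.16 to 0.11 and C12orf5 from -0.090 to 0.10. With sgWRN3 in SW48 RRM2B ran from -0.096 to 0.31, FDXR from -0.0092 to 0.59, TP53I3 from -0.076 to 0.35, AEN from -0.0082 to 0.37 and PHLDA3 from -0.056 to 0.74. With sgWRN2 in OVK18 DDB2 ran from -0.15 to 0.19, RRM2B from -0.31 to 0.24 and C12orf5 from -0.21 to 0.13. With sgWRN3 in OVK18 XPC ran from -0.040 to 0.044, RRM2B from -0.15 to 0.11, TP53I3 from -0.027 to 0.093, C12orf5 from -0.12 to 0.17 and RPS27L from -0.19 to 0.14. For SW48 minus OVK18 FDXR ran from -0.052 to 0.35, TP53I3 from -0.042 to 0.39 and AEN from -0.078 to 0.27. For sgWRN2 against sgWRN3 in SW48 DDB2 ran from -0.13 to 0.11, FDXR from -0.11 to 0.49, AEN from -0.039 to 0.31 and PHLDA3 from -0.12 to 0.65; in OVK18 DDB2 ran from -0.30 to 0.047, RRM2B from -0.30 to 0.25, C12orf5 from -0.24 to 0.095 and PHLDA3 from -0.079 to 0.17. Between the lines with sgCh2-2 XPC ran from -0.027 to 0.12 and FDXR from -0.015 to 0.39.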
